A study of Mus musculus with 10 samples.

Results

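The genes of epithelial cell junctions were followed in mouse tracheal organoids: the claudins, the cadherins, the desmosomal cadherins and plaque proteins, and the membrane proteins and scaffolds of tight junctions. They were taken from the table of counts by gene symbol: names made of Cldn, Cdh, Dsg, Dsc, Pkp or Tjp with a number, plus Ocln, F11r, Marveld2, Marveld3, Dsp and Jup. This gave 48 genes of 22457 in the table. Of these, 33 had enough counts to be tested. The other 15 had between 1 and 59 counts summed over 6 libraries. A further 20 symbols that the rule would take, among them Cldn5, Cldn18, Cdh5, Dsg1a and Dsc1, have no row and were not analysed here.

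Cells of mouse tracheal epithelium were embedded in Matrigel, where basal cells form multicellular organoids, and RNA was taken on day 14. Ctrl organoids came from control mice and M3-CKO organoids from mice that the series title calls a Mettl3 knockout, with 3 RNA-seq libraries in each group. Mettl3 encodes the catalytic subunit of the enzyme complex that writes N6-methyladenosine on mRNA. The labels state no Cre driver, allele, strain or age and describe no sorting of basal cells. They also do not say that replicates are separate mice or cultures, so the p-values cover only variation among these libraries, possibly of technical origin. Both groups had the same media: insulin, transferrin, cholera toxin, epidermal growth factor, bovine pituitary extract and retinoic acid throughout, and in the growth medium also serum, the receptor inhibitors A83-01 (TGF-beta) and DMH-1 (BMP) and, at first, the ROCK inhibitor Y-27632. Whether the harvested organoids had been moved to differentiation medium is not said. The comparison asks whether junction transcripts differ in level between organoids of knockout and control cells.

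Tight junctions seal the space between epithelial cells near the apical surface. Claudins form the strands of the seal and set which ions pass, occludin and its MARVEL-domain relatives lie in the same strands, and the scaffold proteins of the Tjp genes tie them to actin. Adherens junctions below them are held by classical cadherins, and desmosomes by desmogleins and desmocollins, whose tails bind plakoglobin, plakophilins and desmoplakin and so reach the keratin filaments. In stratified and pseudostratified epithelia the desmosomal cadherins are layered, with Dsg3 and Dsc3 known as basal forms and Dsg2 and Dsc2 as broadly expressed ones.

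For orientation, the promoter windows of 6 members are shown, 3 whose level was higher in M3-CKO replicates 1 and 2 than in all Ctrl libraries (Cldn3, Cldn4, Ocln) and 3 whose level was lower in every M3-CKO library (Dsp, Jup, Tjp3). Each holds 250 bases before and 50 after a transcription start, 5′ to 3′, from RefSeq on build GRCm38.p6, which differs from the mm39 of the counts. Of the 48 members, 27 have an entry in that table, and Marveld3 has none. The windows lie at chr5:134985964-134986263 (plus strand), chr5:134946885-134947184 (minus strand), chr13:100552669-100552968 (minus strand), chr13:38151044-38151343 (plus strand), chr11:100397741-100398040 (minus strand) and chr10:81291532-81291831 (minus strand), in the order of the sequences. Ocln and Tjp3 have 2 starts each in the table, and the first listed is shown. Capitals mark matches on either strand to 4 motifs: the E-box CACCTG bound by Snail and Zeb repressors, the AP-1 motif TGANTCA, the GC box GGGCGG and the grainyhead core AACNNGTT.
Cldn3: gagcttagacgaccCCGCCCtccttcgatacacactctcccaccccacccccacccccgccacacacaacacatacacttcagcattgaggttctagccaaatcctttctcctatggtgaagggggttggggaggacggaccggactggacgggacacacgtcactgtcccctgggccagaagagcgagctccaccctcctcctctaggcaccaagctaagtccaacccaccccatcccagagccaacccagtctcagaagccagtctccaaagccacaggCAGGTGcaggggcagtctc
Cldn4: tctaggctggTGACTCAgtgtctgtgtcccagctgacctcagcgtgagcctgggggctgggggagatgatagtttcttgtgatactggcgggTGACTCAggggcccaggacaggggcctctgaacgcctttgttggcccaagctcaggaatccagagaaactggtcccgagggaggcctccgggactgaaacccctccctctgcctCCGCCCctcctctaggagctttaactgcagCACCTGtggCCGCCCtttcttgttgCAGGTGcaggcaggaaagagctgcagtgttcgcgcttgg
Ocln: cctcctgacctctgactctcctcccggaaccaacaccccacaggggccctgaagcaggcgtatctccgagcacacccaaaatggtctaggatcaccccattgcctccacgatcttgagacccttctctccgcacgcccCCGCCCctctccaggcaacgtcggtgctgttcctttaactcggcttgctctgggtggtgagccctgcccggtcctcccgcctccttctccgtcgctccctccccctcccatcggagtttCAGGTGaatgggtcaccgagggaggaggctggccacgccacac
Dsp: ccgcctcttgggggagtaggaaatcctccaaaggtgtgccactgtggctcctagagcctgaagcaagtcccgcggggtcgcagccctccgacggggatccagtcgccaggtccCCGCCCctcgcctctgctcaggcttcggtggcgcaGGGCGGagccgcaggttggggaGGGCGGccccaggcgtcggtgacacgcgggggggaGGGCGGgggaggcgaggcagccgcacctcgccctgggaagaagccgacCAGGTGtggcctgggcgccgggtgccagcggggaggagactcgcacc
Jup: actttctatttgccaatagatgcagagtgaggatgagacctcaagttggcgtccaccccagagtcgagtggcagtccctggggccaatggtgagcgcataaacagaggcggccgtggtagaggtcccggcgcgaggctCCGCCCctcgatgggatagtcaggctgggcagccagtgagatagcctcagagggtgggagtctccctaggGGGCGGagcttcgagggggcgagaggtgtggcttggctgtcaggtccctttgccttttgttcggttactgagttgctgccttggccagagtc
Tjp3: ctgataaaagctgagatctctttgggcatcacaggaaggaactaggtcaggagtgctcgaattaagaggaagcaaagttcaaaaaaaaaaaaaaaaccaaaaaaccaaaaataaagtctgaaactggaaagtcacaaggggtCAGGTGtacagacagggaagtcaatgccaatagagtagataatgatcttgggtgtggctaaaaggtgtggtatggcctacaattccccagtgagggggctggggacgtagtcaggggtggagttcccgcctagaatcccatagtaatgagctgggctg
Cldn3 and Cldn4 are neighbours in the gene order of that build. The Cldn4 window held 2 matches each to the E-box, the AP-1 motif and the GC box, and the Dsp window 1 E-box and 4 GC boxes. The Cldn3 and Ocln windows each held 1 E-box and 1 GC box, the Tjp3 window 1 E-box and the Jup window 2 GC boxes. No window held the grainyhead core. Over all 32851 windows of the table, 20.2% held the E-box, 7.81% the AP-1 motif, 35.7% the GC box and 4.20% the grainyhead core. A match is a description of letters, and binding was not measured.

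The libraries held 8906375 to 10485922 counts. Pearson's r between libraries, over the tested genes on a log2(CPM + 1) scale, was 0.974 to 0.983 among the Ctrl libraries. Between the first 2 M3-CKO libraries it was 0.990. M3-CKO replicate 3 stood apart, with r of 0.930 and 0.920 to the other M3-CKO libraries and 0.934 to 0.938 to the Ctrl libraries, so results are given with and without it. Mettl3 stood at 15.0, 17.0 and 18.9 CPM in Ctrl and 11.1, 10.3 and 9.87 CPM in M3-CKO, all lower than Ctrl, a difference that did not pass the test (-0.70 on the log2 scale, SE 0.21, adjusted p = 0.12, or 0.043 when M3-CKO replicate 3 was left out). CPM are counts scaled to a common library size. They are not divided by gene length, so levels are compared between libraries and not between genes. All 9 markers of airway epithelium had counts, with summed levels of 4554 to 5208 CPM in Ctrl and 4532 to 5101 CPM in M3-CKO. The 7 basal cell markers summed to 2553 to 3212 CPM in Ctrl, and to 937, 843 and 2221 CPM in the M3-CKO libraries in order of replicate number. Aqp3 held 1127 CPM of the sum in M3-CKO replicate 3, and without Aqp3 the other 6 markers summed to 1942 to 2386 CPM in Ctrl and to 762, 679 and 1094 CPM in M3-CKO. The 9 hillock and squamous cell markers with a row summed to 657 to 788 CPM in Ctrl and 226 to 310.1 CPM in M3-CKO. Of these sums Krt4 held 456 to 612 and 109 to 213 CPM, and Sprr1a 101 to 132 and 54.8 to 72.5 CPM. No other marker of this list exceeded 49.5 CPM in any library (Krt6a). Among other cell types, the 6 endothelial markers with a row summed to at most 3.38 CPM in any library, the 6 mesenchymal ones to at most 13.0 CPM (11.8 of it Pdgfra). The 5 immune markers with a row summed to 536 to 1434 CPM in Ctrl and 457 to 793 CPM in M3-CKO. Most of this was Lyz2, without which the other 4 summed to 63.3 to 91.3 and 38.6 to 100.0 CPM, most of it Cd68, and Ptprc, the pan-leukocyte marker, had 0 counts in 5 of 6 libraries. The part of changed cell make-up in the results below was not tested, and in bulk RNA fewer cells of a type and less RNA per cell cannot be told apart.

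Of the 33 tested junction genes, 1 passed the edgeR test at an adjusted p under 0.05: Marveld3, which was lower in M3-CKO. Over all 13528 genes tested, 2.91% were called, 1.74% higher and 1.16% lower. The members had 15 positive and 18 negative log2 fold changes, with a median of -0.02 against 0.02 over all tested genes. At an unadjusted p under 0.05 there were 11 members, 5 higher and 6 lower (33.3% of the members, against 20.5% of all genes). DESeq2 called 3 higher and 6 lower, 27.3% of the members, where it called 10.4% of all genes (6.05% higher, 4.31% lower). For 11 members the groups did not overlap, 4 with M3-CKO higher and 7 with M3-CKO lower. This is 33.3% of the members against 27.1% of all tested genes (13.7% higher, 13.5% lower), a share near the background.

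The count rests on M3-CKO replicate 3. Without it, edgeR called 15 of 34 tested members, 6 higher and 9 lower, or 44.1% against 25.0% of all genes (13.7% higher, 11.3% lower). The 6 higher were Cldn1, Cldn3, Cldn4, Ocln, Cdh13 and Cdh23, and the 9 lower were Dsp, Jup, Pkp2, Pkp3, Dsg3, Dsc3, Marveld3, Tjp3 and Cldn10. That setting leaves M3-CKO with replicates 1 and 2, the pair of highest r. The call of Marveld3 was lost without any 1 of the other 5 libraries.

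**Figure D1:**
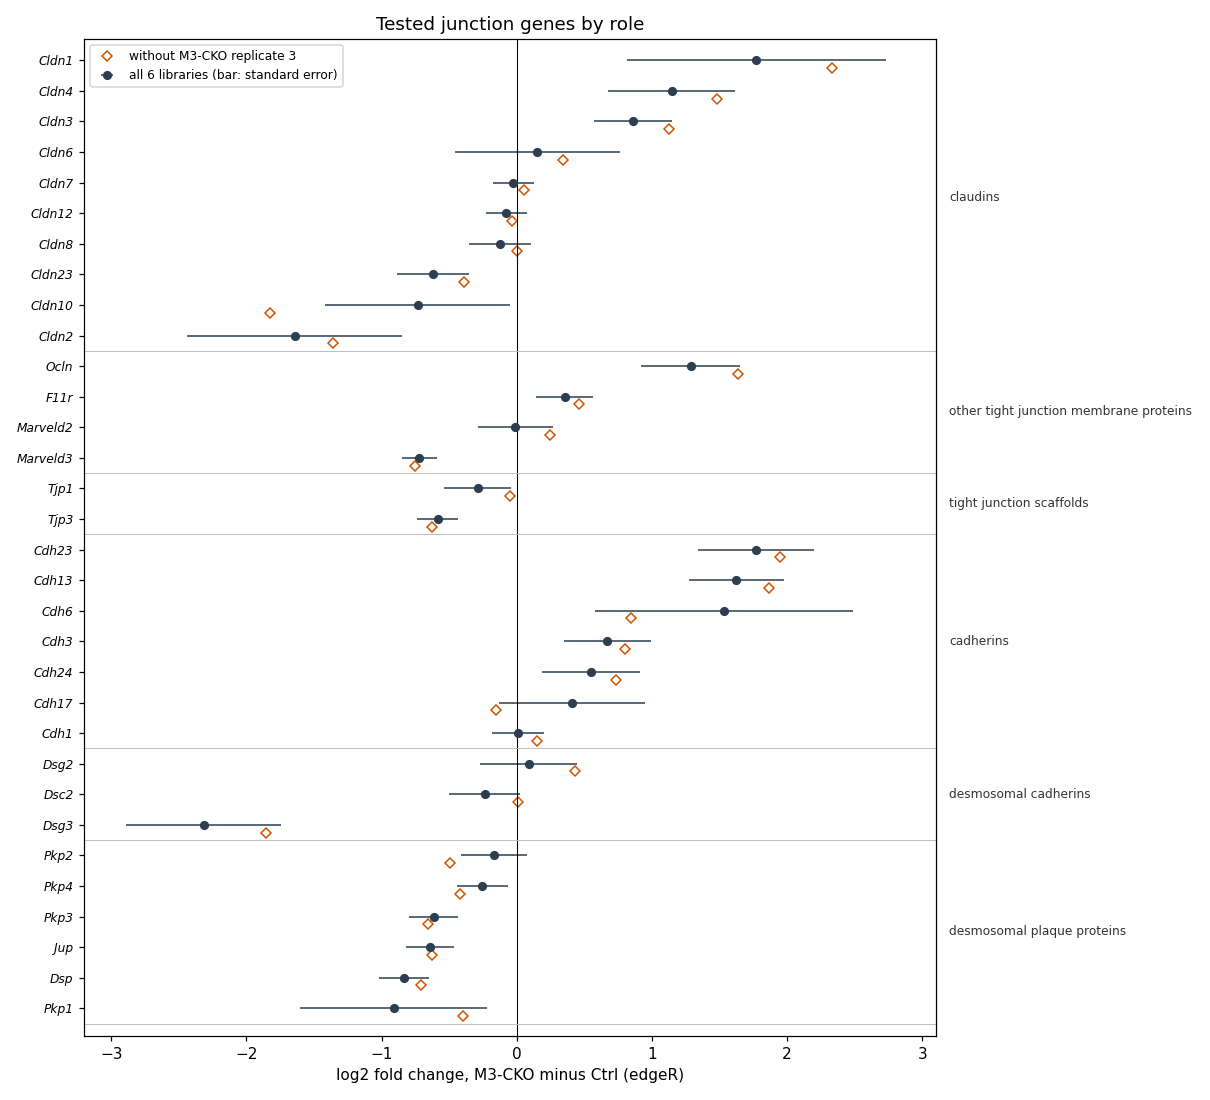
Log2 fold change (M3-CKO minus Ctrl, edgeR) of 32 tested junction genes by role, with the standard error as a bar, and the value without M3-CKO replicate 3 as an open diamond. All 7 tested cadherins lie at or above 0 with 6 libraries and all 6 desmosomal plaque genes below 0, while the claudins spread from -1.64 (Cldn2) to 1.77 (Cldn1).

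Claudins showed no common direction. Of 17 with a row, 10 were tested, 0 were called by edgeR or DESeq2, and 4 of the 10 log2 fold changes were positive. An unadjusted p under 0.05 was found for 2 (20.0%, against 20.5% of all tested genes). Cldn3 and Cldn4, claudins known to tighten epithelia and also known as the receptors of a clostridial toxin, had those 2 low p-values. In order of replicate number, as in all series of values here, the level of Cldn4 was 1189, 437 and 708 CPM in Ctrl and 2060.4, 2307 and 807 CPM in M3-CKO. Replicates 1 and 2 of M3-CKO lay above every Ctrl library, and replicate 3 lay between Ctrl replicates 1 and 3. Its log2 fold change was 1.15 (SE 0.47, adjusted p = 0.22), and 1.48 without M3-CKO replicate 3 (adjusted p = 0.017). Cldn3 followed the same layout, at 341, 269.8 and 367 CPM in Ctrl and 719, 705 and 351 CPM in M3-CKO. The mean of M3-CKO replicates 1 and 2 was 2.18-fold the Ctrl mean, whereas replicate 3 lay within the Ctrl range. The fitted log2 value of 0.86 (SE 0.29, adjusted p = 0.15) became 1.12 without that library (adjusted p = 0.0019).

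Cldn1, a claudin needed for the barrier of skin, was low, at 2.73, 1.27 and 2.81 CPM in Ctrl and 14.0, 8.90 and 0.407 CPM in M3-CKO. Replicates 1 and 2 of M3-CKO were above all Ctrl libraries and replicate 3, which held 4 counts, was below all of them. For Cldn1 the log2 fold change was 1.77 (SE 0.96, adjusted p = 0.35), and 2.33 without M3-CKO replicate 3 (adjusted p = 0.0049). Cldn23, a claudin of differentiated epithelia, stood at 338, 232 and 295 CPM in Ctrl and 206, 236 and 122 CPM in M3-CKO. Only M3-CKO replicate 2 reached the Ctrl range, and the difference did not pass the test (-0.62, SE 0.27, adjusted p = 0.24). Cldn2, which forms cation pores, was low as well, with 4.37, 1.48 and 4.27 CPM in Ctrl and 2.32, 0.228 and 0.610 CPM in M3-CKO. Its log2 fold change was -1.64 (SE 0.80, adjusted p = 0.30), and the groups overlapped. Cldn7, widely expressed along epithelial membranes, differed least among the named claudins. It stood at 215, 188 and 208 CPM in Ctrl and 210.0, 214 and 176 CPM in M3-CKO (-0.02 on the log2 scale, SE 0.15, adjusted p = 0.95). Wbscr25 overlaps Cldn3 in the annotation, so the Cldn3 count may hold its reads. Predicted genes or uncharacterised loci overlap Ocln, Cdh13, Cldn10 and Dsg2 in the same way.

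The other membrane proteins of tight junctions had no common sign, and edgeR called 1 of 4, where it called 2.91% of all tested genes. Marveld3, a MARVEL-domain relative of occludin, stood at 99.7, 101 and 98.5 CPM in Ctrl and 61.2, 57.9 and 62.6 CPM in M3-CKO. Every library of a group lay close to its mean, 99.8 ± 1.40 CPM in Ctrl and 60.5 ± 2.42 CPM in M3-CKO (SD, n = 3), and M3-CKO replicate 3 was no exception. Marveld3 fell to 60.6% of the Ctrl mean (log2 fold change -0.72, SE 0.13, edgeR adjusted p = 0.037), with an adjusted p of 0.0031 without M3-CKO replicate 3 and 1.0e-04 by DESeq2.

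Ocln, which encodes occludin itself, stood at 89.6, 84.3 and 90.4 CPM in Ctrl and 265, 284 and 96.3 CPM in M3-CKO. The groups did not overlap, but M3-CKO replicate 3 lay just above the Ctrl libraries while replicates 1 and 2 averaged 3.11-fold the Ctrl mean. Ocln had a log2 fold change of 1.29 (SE 0.37) and an adjusted p of 0.11 with edgeR, 0.013 with DESeq2 and 2.2e-04 without M3-CKO replicate 3. F11r, which encodes the junctional adhesion molecule JAM-A, stood at 506, 332 and 373 CPM in Ctrl and 575, 540.3 and 433 CPM in M3-CKO. M3-CKO replicate 3 lay within the Ctrl range, and the log2 fold change was 0.35 (SE 0.21, adjusted p = 0.39). Marveld2, which encodes tricellulin of the corners where cells meet, had a log2 fold change of -0.01.

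Of the scaffolds, Tjp3 (ZO-3) stood at 112, 119.9 and 113 CPM in Ctrl and 65.8, 83.2 and 80.5 CPM in M3-CKO. Every M3-CKO library was below every Ctrl library, replicate 3 included. The log2 fold change of -0.59 (SE 0.15) missed the edgeR threshold (adjusted p = 0.079) and passed with DESeq2 (adjusted p = 0.015) and without M3-CKO replicate 3 (adjusted p = 0.013). Tjp3 overlaps Apba3 in the annotation, and no source used here gives the strand setting of the counting, so its count may hold reads of that gene. Tjp1 (ZO-1) stood at 232, 263 and 258 CPM in Ctrl and 230.5, 256 and 130.3 CPM in M3-CKO. Replicate 3 alone was low, and the log2 fold change moved from -0.29 (SE 0.25, adjusted p = 0.57) to -0.05 without it.

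**Figure D2:**
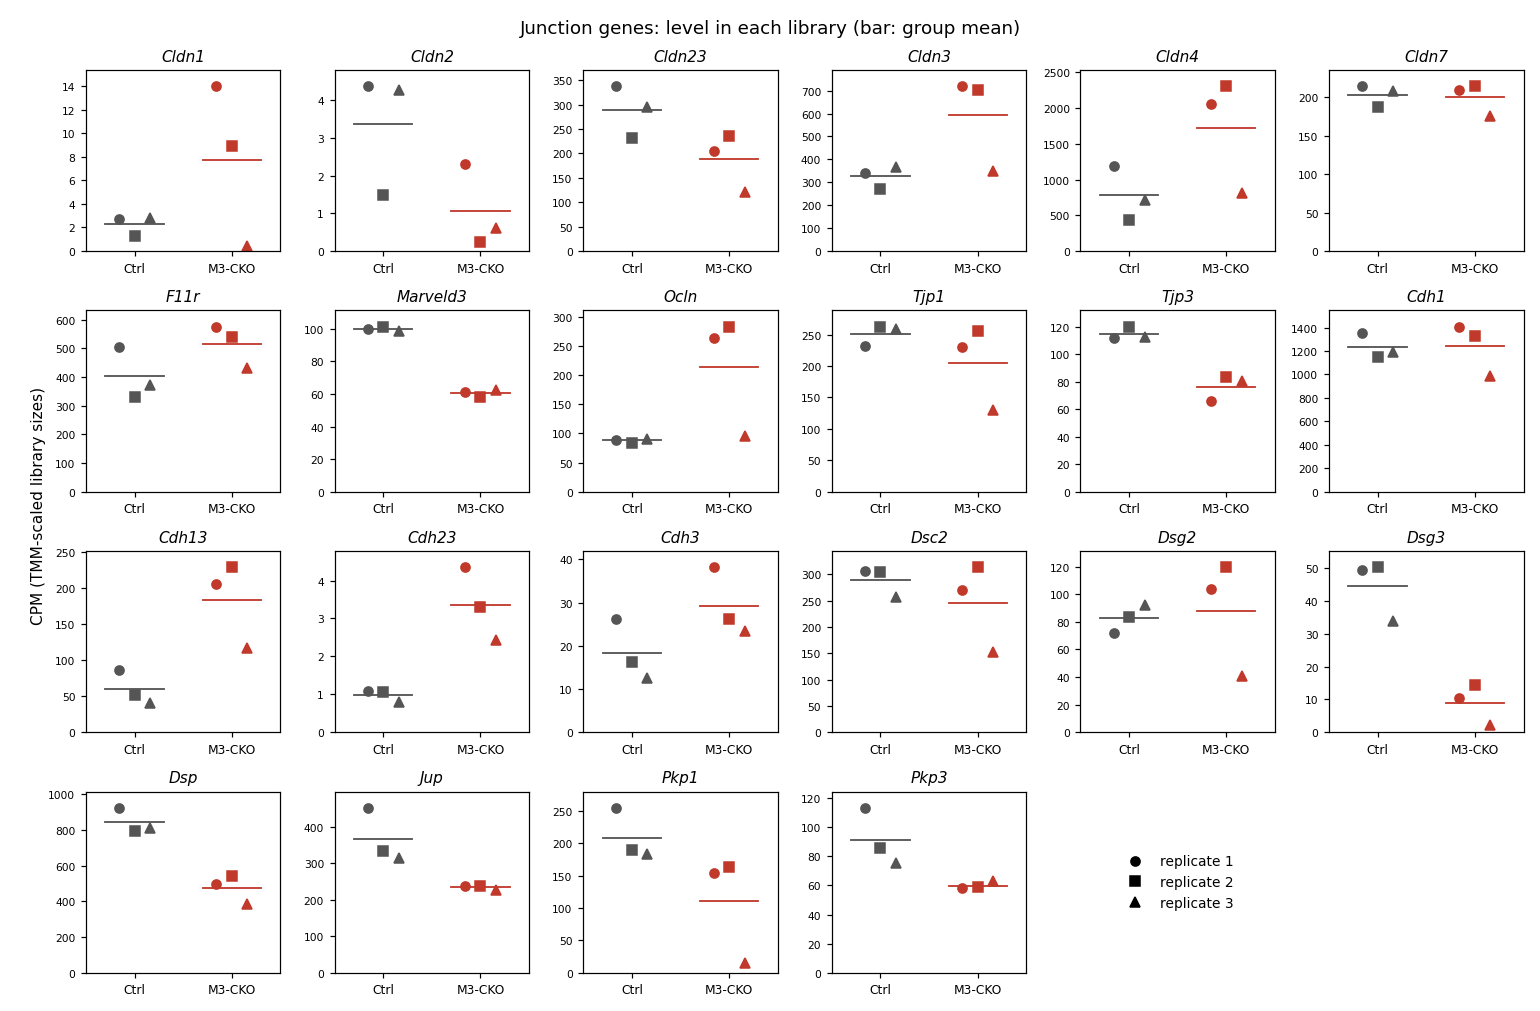
CPM of the 22 named junction genes in each library, with Ctrl in grey, M3-CKO in red, a symbol for each replicate number and a bar at the group mean. Each vertical axis starts at 0. For Marveld3, Tjp3, Jup and Pkp3 the 3 M3-CKO libraries lie together below Ctrl, whereas for Ocln, Cldn3 and Cldn4 replicate 3 lies with or near the Ctrl libraries.

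Among the cadherins, the log2 fold change was positive for all 7 tested members, with a median of 0.67 against 0.02 over all tested genes, yet 0 were called by edgeR. DESeq2 called 2 (28.6%, against 10.4% of all tested genes). Before adjustment 2 had an edgeR p under 0.05 (28.6%, against 20.5% of all tested genes). For Cdh1 and Cdh17 the sign changed with the setting, as given below for Cdh1 and at -0.16 for Cdh17 without M3-CKO replicate 3. Cdh13, a cadherin held in the membrane by a lipid anchor in place of a cytoplasmic tail, stood at 86.3, 51.8 and 40.1 CPM in Ctrl and 206, 228 and 116 CPM in M3-CKO. All M3-CKO libraries were above all Ctrl libraries, and their mean was 3.09-fold that of Ctrl. Cdh13 had a log2 fold change of 1.63 (SE 0.35) and an adjusted p of 0.055 with edgeR, 3.7e-04 with DESeq2 and 0.0028 without M3-CKO replicate 3. Cdh23, a long cadherin best known from the tip links of hair cells, stood at 1.09, 1.06 and 0.786 CPM in Ctrl and 4.35, 3.31 and 2.44 CPM in M3-CKO. These levels rest on 7 to 45 counts per library, and the groups did not overlap. Its log2 fold change was 1.77 (SE 0.43, adjusted p = 0.071), with an adjusted p of 0.023 by DESeq2 and 0.016 without M3-CKO replicate 3. Vsir lies within the span of Cdh23 in the annotation, so reads of that gene may be part of its count.

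Cdh3 (P-cadherin), a classical cadherin of basal layers, stood at 26.3, 16.3 and 12.6 CPM in Ctrl and 38.1, 26.2 and 23.4 CPM in M3-CKO. The highest Ctrl library was above the lowest 2 of M3-CKO, and the difference did not pass the test (0.67, SE 0.32, adjusted p = 0.30). Cdh1 (E-cadherin), the main cadherin of epithelial adherens junctions, stood at 1353, 1151 and 1188 CPM in Ctrl and 1406, 1329 and 986 CPM in M3-CKO. The means of 1231 ± 108 and 1240.2 ± 223 CPM (SD, n = 3) differed by 0.01 on the log2 scale (SE 0.19, adjusted p = 0.98), a value whose sign changed with the libraries used. Of the 6 cadherins below the count filter, none exceeded 37 counts over all libraries (Cdh26). Cdh2 (N-cadherin), whose gain marks a mesenchymal state, had 11 counts in Ctrl and 4 in M3-CKO.

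Of the desmosomal cadherins, the basal forms were lower in M3-CKO libraries and the broad forms overlapped between groups. Dsg3, the desmoglein of basal layers and the main antigen of pemphigus vulgaris, stood at 49.4, 50.2 and 33.8 CPM in Ctrl and 10.4, 14.3 and 2.14 CPM in M3-CKO. All M3-CKO libraries were below all Ctrl libraries, with a mean 20.1% of that in Ctrl and replicate 3 the lowest. Dsg3 had a log2 fold change of -2.32 (SE 0.57) and an adjusted p of 0.073 with edgeR, 9.6e-04 with DESeq2 and 0.0017 without M3-CKO replicate 3. Dsc3, the desmocollin of basal layers, was below the count filter. It had 8, 29 and 20 counts in Ctrl and 0, 2 and 0 counts in M3-CKO, a ratio of 30.0 in scaled counts (95% interval 7.93 to 254, exact conditional binomial method, counting error only). Without a low-count filter edgeR called Dsc3 lower (adjusted p = 0.031).

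Basal cell keratins were lower beside Dsg3 and Dsc3. Krt5 stood at 502, 477 and 308 CPM in Ctrl and 117, 95.6 and 152 CPM in M3-CKO. Krt14 stood at 99.6, 72.3 and 50.3 against 22.0, 19.9 and 9.05 CPM, and Krt15 at 947, 1078 and 1009 against 219, 165 and 264 CPM. Trp63, the transcription factor of basal cells, stood at 264, 269 and 185 against 111, 103 and 196 CPM. Its groups overlapped (-0.81 on the log2 scale, SE 0.28, adjusted p = 0.16). Those of the remaining basal markers overlapped too: Ngfr (-0.75, adjusted p = 0.26), Pdpn (-0.06, adjusted p = 0.90) and Aqp3 (-0.61, adjusted p = 0.68). In M3-CKO replicate 3, Aqp3 stood at 1127 CPM, above every Ctrl library. Of 9 tested hillock and squamous cell markers, edgeR called 2 lower, Krt4 (-1.82 on the log2 scale, SE 0.27, adjusted p = 0.027) and Sprr1a (-0.95, SE 0.18, adjusted p = 0.039), and 1 higher, Lor (4.61, SE 0.73, adjusted p = 0.029), which had at most 0.437 CPM in Ctrl. The part of these cell types in the desmosomal values was not tested. The broadly expressed forms differed less. Dsc2 stood at 305, 305 and 256 CPM in Ctrl and 269.7, 313 and 152 CPM in M3-CKO (log2 fold change -0.24, SE 0.26, adjusted p = 0.67). Dsg2 stood at 72.3, 83.5 and 92.3 CPM in Ctrl and 104, 119 and 40.5 CPM in M3-CKO. Replicates 1 and 2 were above, and replicate 3 below, all Ctrl libraries, so the fitted log2 value of 0.09 (SE 0.36, adjusted p = 0.92) averages opposite departures. The difference between basal and broad forms was not tested.

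All 6 genes of desmosomal plaque proteins had a negative log2 fold change, with a median of -0.63 against 0.02 over all tested genes, and 0 were called by edgeR with 6 libraries. DESeq2 called 3, and 3 had an edgeR p under 0.05 before adjustment. Over all tested genes DESeq2 called 10.4% (4.31% lower) and 20.5% had such a p. Groups did not overlap for 4 of the 6, all lower, against 27.1% of all tested genes (13.5% lower). Dsp, which encodes desmoplakin, the link to keratin filaments, stood at 923, 795 and 814 CPM in Ctrl and 496, 542 and 384 CPM in M3-CKO. On average M3-CKO libraries held 56.1% of the Ctrl level, and all M3-CKO libraries were below all Ctrl libraries. Its log2 fold change of -0.83 (SE 0.18) had an adjusted p of 0.058, which was 0.0012 with DESeq2, 0.042 with total counts in place of TMM scaling and 0.0070 without M3-CKO replicate 3.

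Jup, which encodes plakoglobin, a plaque protein shared by desmosomes and adherens junctions, stood at 451, 332 and 314 CPM in Ctrl and 237, 238 and 227 CPM in M3-CKO. The M3-CKO libraries lay close together, at 234 ± 6.07 CPM (SD, n = 3), below all Ctrl libraries. The fitted difference for Jup was -0.64 on the log2 scale (SE 0.18; adjusted p 0.098), with an adjusted p of 0.021 by DESeq2. Pkp3, a plakophilin of most epithelial layers, stood at 113, 85.7 and 75.6 CPM in Ctrl and 58.0, 58.5 and 62.9 CPM in M3-CKO. Again all M3-CKO libraries were below all Ctrl libraries (log2 fold change -0.61, SE 0.18, adjusted p = 0.12), with an adjusted p of 0.0496 by DESeq2. Pkp1, a plakophilin of suprabasal layers, stood at 254, 189 and 183 CPM in Ctrl and 154, 163 and 15.5 CPM in M3-CKO. The mean of replicates 1 and 2 was 10.3-fold that of replicate 3, and the log2 fold change was -0.91 (SE 0.69, adjusted p = 0.51) with this library and -0.40 without it.

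**Figure D3:**
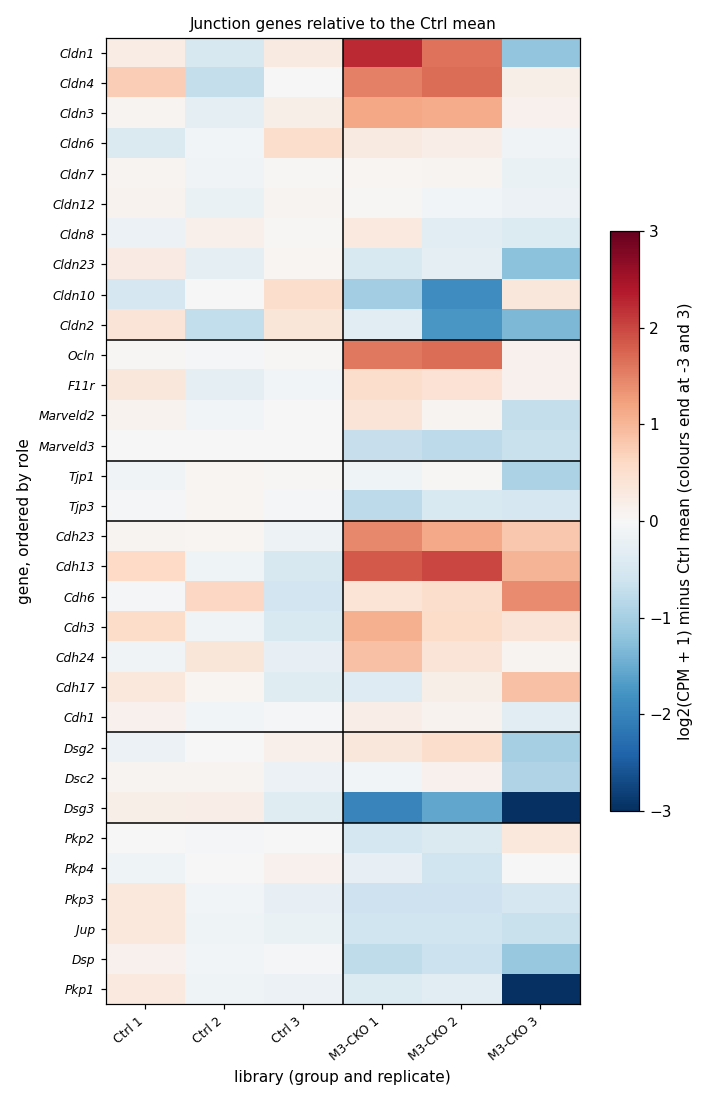
Level of 32 tested junction genes in each library as log2(CPM + 1) minus the Ctrl mean, red above and blue below, with black lines between the roles and between the groups. M3-CKO replicate 3 departs from replicates 1 and 2 in Cldn1, Cldn3, Cldn4, Cldn10, Ocln, Dsg2, Dsg3 and Pkp1 by over 2-fold, and lies close to them in Marveld3, Tjp3, Jup and Pkp3.

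The departure of M3-CKO replicate 3 leaned one way among junction genes. On the scale of log2(CPM + 1), it was below the mean of replicates 1 and 2 for 24 of 33 tested members (72.7%, against 49.3% of all tested genes), with a median difference of -0.42 against 0.01. It was over 2-fold lower for 7 members (21.2%, against 10.5% of all tested genes): Cldn1, Cldn3, Cldn4, Ocln, Dsg2, Dsg3 and Pkp1. It was over 2-fold higher for 1, Cldn10, a claudin of paracellular ion pores (7.53% of all tested genes). The lists of genes around the junctions, given below, also had lower summed levels in replicate 3 than in replicates 1 and 2, except 1. Adherens junction partners summed to 4652 against 7230 and 7609 CPM, and tight junction partners to 2600 against 3673 and 3668 CPM. Proteases and inhibitors summed higher, to 2685 against 2180 and 2213 CPM. With 1 such library there is no test of this pattern. In the same library the 6 club cell markers summed to 4906 CPM, against 1873 and 1366 CPM in replicates 1 and 2 and 3047 to 3578 CPM in Ctrl. Of these sums Cyp2f2 held 2793 CPM in replicate 3, 1418 and 1068 CPM in replicates 1 and 2, and 2520 to 2794 CPM in Ctrl. Scgb1a1, Scgb3a1 and Scgb3a2 held 359, 979 and 247 CPM in replicate 3, against at most 5.57, 281 and 37.3 CPM in Ctrl. Scgb1a1, at 83.2 and 37.5 CPM in replicates 1 and 2, was the only marker edgeR called (5.23, SE 0.89, adjusted p = 0.033). Cyp2a5 was below Ctrl in every M3-CKO library (-2.27, SE 0.63, adjusted p = 0.098). Bpifa1 in replicate 3 lay within the Ctrl range. The basal cell markers summed to 2221 CPM in M3-CKO replicate 3 against at most 937 CPM in replicates 1 and 2. Without Aqp3 they summed to 1094 against at most 762 CPM, and Krt14 was at its lowest in replicate 3. The part of these in the junction values was not tested.

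The 11 tested members not described in full had log2 fold changes between -0.73 (Cldn10) and 1.53 (Cdh6), 5 positive and 6 negative. The lowest adjusted p was 0.37, so edgeR called 0 of them, and DESeq2 called 0. Besides those given above they included Cldn6, Cldn8, Cldn12, Cdh24, Pkp2 and Pkp4. Without M3-CKO replicate 3, Cldn10 (-1.83, adjusted p = 0.033) and Pkp2 (-0.50, adjusted p = 0.030) were called lower. Below the count filter with Dsc3 were Cldn9, Cldn11, Cldn13, Cldn15, Cldn20, Cldn22, Cldn24, Dsg4, Cdh2, Cdh10, Cdh11, Cdh15, Cdh16 and Cdh26. Of these, Cldn22 had the most counts, 17 in Ctrl and 28 in M3-CKO. Without the filter Dsc3 was the only one of these 15 that edgeR called. By the exact interval used for Dsc3, which covers counting error only and was not adjusted over the 15 genes, the ratio of Ctrl to M3-CKO also lay apart from 1 for 3 others. Cldn20 had 15 counts in Ctrl and 4 in M3-CKO (ratio 3.95, 95% interval 1.26 to 16.3), Cldn15 had 6 and 0 (interval from 1.24) and Cldn9 had 0 and 8 (interval up to 0.616).

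Genes that work around the junctions were counted in 7 lists, with 98 tested genes in all and 5 called by edgeR (5.1%, against 2.91% of all tested genes). Of 19 tested adherens junction partners, 1 was called higher and 0 lower (median log2 fold change 0.22). Nectin2, an immunoglobulin-like adhesion molecule of adherens junctions, stood at 161, 111 and 121 CPM in Ctrl and 374, 373 and 263 CPM in M3-CKO. It rose in all M3-CKO libraries (log2 fold change 1.36, SE 0.22, adjusted p = 0.029). Of 11 desmosome partners, which include the keratins that desmosomes anchor, 2 fell and 0 rose (median -0.17). They were Krt5 (-1.82, SE 0.26, adjusted p = 0.024) and Krt14 (-2.13, SE 0.38, adjusted p = 0.037), both also markers of basal cells.

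Of 9 tested proteases and inhibitors that act at junctions, 1 rose and 0 fell (median 0.27). Adam10, the membrane protease that sheds E-cadherin, stood at 212, 266 and 234 CPM in Ctrl and 420.3, 421 and 373 CPM in M3-CKO, with all M3-CKO libraries above Ctrl (0.77, SE 0.15, adjusted p = 0.047). Of 12 other cadherin superfamily genes, 1 fell and 0 rose (median -0.20). Fat2, a giant atypical cadherin of squamous epithelia, stood at 351, 362 and 238 CPM in Ctrl and 90.5, 94.0 and 158 CPM in M3-CKO (-1.47, SE 0.27, adjusted p = 0.038).

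None of 26 tight junction partners, 13 regulators of junction genes and 8 connexins was called by edgeR. The 13 regulators are transcription factors apart from Esrp1 and Esrp2, which regulate splicing. At an unadjusted p under 0.05 there were 4, 5 and 1, where 20.5% of all tested genes had such a p. DESeq2 called 1, 2 and 0, where it called 10.4% of all tested genes. The medians of these lists were -0.09, -0.26 and -0.15. The lowest p in each belonged to Ildr1, a tricellular junction receptor (-0.60, SE 0.14, adjusted p = 0.063), Esrp2, a splicing regulator of epithelial cells (-0.64, SE 0.14, adjusted p = 0.062), and Gja1, connexin 43 (1.17, SE 0.44, adjusted p = 0.19). Gja1 stood at 120.0, 139.9 and 111 CPM in Ctrl and 419, 313 and 103 CPM in M3-CKO. As for Cldn1, replicates 1 and 2 of M3-CKO were above all Ctrl libraries and replicate 3 was below all of them. Without M3-CKO replicate 3, 35 of 102 tested genes of the 7 lists were called (34.3%, against 25.0% of all genes).

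**Figure D4:**
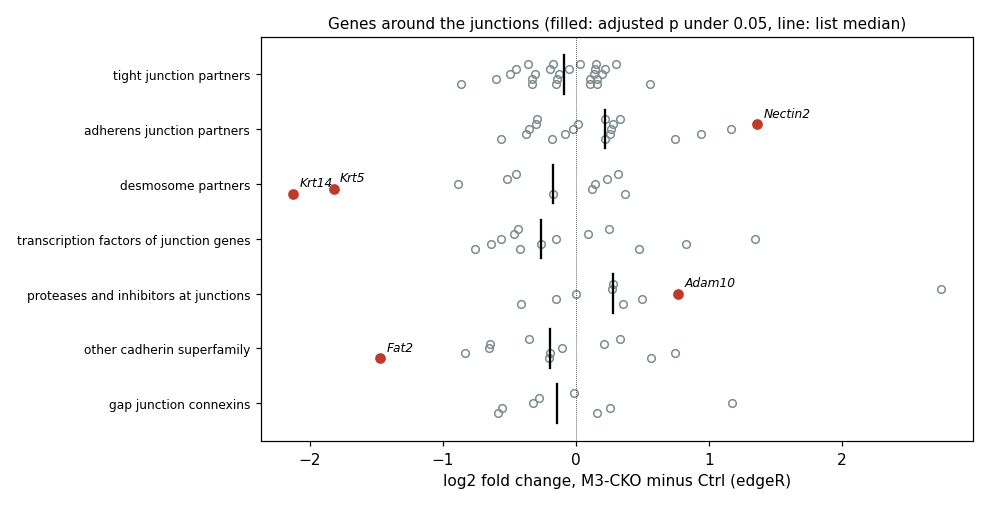
Log2 fold change (M3-CKO minus Ctrl, edgeR) of the tested genes of 7 lists around the junctions, with called genes filled and named and the list median as a black line. Of 98 genes, Nectin2 and Adam10 lie to the right as called, and Krt5, Krt14 and Fat2 to the left.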

How the data were processed

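RNA was read by sequencing in 6 libraries, 3 per group. The authors deposited 1 table of read counts per gene, without normalization. featureCounts, HISAT2 and Trim Galore appear in the submitters' processing notes, as does build mm39, and no source used here gives their versions, the annotation or the strand setting. The 4 libraries of m6A immunoprecipitation and input were not analysed here.

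edgeR 4.0.16 (R 4.3.3) was run on all genes: filterByExpr kept 13528 of 22457, TMM factors ran from 0.956 to 1.05, and the two-sided quasi-likelihood test used no covariate. Adjusted p-values are Benjamini-Hochberg over all tested genes, with calls under 0.05, and belong to this fit where no other tool stands beside them. The standard error (SE) is the log2 fold change over the square root of F. The steps were tested on simulated data with independent genes and no library set apart. That test thus says nothing of the weight of M3-CKO replicate 3 in the calls. Alternatives were DESeq2 1.42.0 (its test and its size factors), limma-voom (limma 3.58.1), total counts, other filters, the replicate block and leaving out each library.

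The members and lists were chosen with earlier results of these data known. Named were called members, those of lowest p up to 14, the member of highest mean CPM in each role and 14 fixed genes, of which some coincide, giving 22. Of each other list, up to 3 called genes or the 1 of lowest p were named. Dsc3, Marveld2, Cldn10, Cdh17, Pkp2, Cdh2, Cldn22, Cldn9, Cldn15, Cldn20 and the cell type markers given by name were chosen after their values were seen. The values of 1 member are not reported here, though counts over the members include it.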

Additional observations from a re-analysis of the deposited data

How the results depend on the processing

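Calls depended on the test, the filter and single libraries. Over all genes 393 were called, against 1402 with DESeq2, 740 with no low-count filter, 20 with the replicate block and 0 to 3483 when a library was left out. The settings with 0 calls left out Ctrl replicate 1 or 3, and there 2378 and 1963 genes had an unadjusted p under 0.05. Junction genes called higher were 0, against 1 with total counts, 3 with DESeq2, 2 with no filter and 0 to 6 with a library left out. Those called lower were 1, against 2, 6, 4 and 0 to 9 in the same settings and 0 with the replicate block. Genes called in the other lists were 5, against 12 with DESeq2, 1 with the block and 0 to 35 with a library left out. Without M3-CKO replicate 3 the counts were 3483, 6, 9 and 35, and without any other 1 library no junction gene was called. The members' median log2 fold change, -0.02, lay between -0.13 (stricter filter) and 0.01 (without M3-CKO replicate 3).

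Of the 22 named members, 18 kept their direction in every setting that gave a value. The log2 fold change changed sign for Cdh1 (-0.0021 with limma-voom, -0.0020 with the block, and -0.087 to 0.15 with a library left out), Dsg2 (-0.053 with limma-voom, -0.033 with the block, -0.18 to 0.43 with a library left out), Cldn7 (-0.084 to 0.056 with a library left out, positive without Ctrl replicate 1 or M3-CKO replicate 3) and Dsc2 (-0.44 to 0.0086 with a library left out, positive without M3-CKO replicate 3). Without any 1 of the libraries other than M3-CKO replicate 3, Marveld3 had an adjusted p of 0.12 to 0.17, and with the replicate block 0.13. The labels link same-numbered libraries by a number alone. Their deviations from the group means had r of -0.02, 0.02 and -0.11, and 0 of 6 libraries correlated best with its own number. With 3 libraries per group, 1 of which stood apart, these values cannot decide whether the libraries are paired. The causes were not tested. Depth limits Cdh23, Cldn1, Cldn2 and Dsc3, which rest on few counts.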

Other observations

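Klk14, a secreted kallikrein protease of squamous epithelia, stood at 6.22, 21.9 and 6.96 CPM in Ctrl and 13.4, 20.2 and 202 CPM in M3-CKO. It was thus high in M3-CKO replicate 3 alone. In that library Dsg2, Dsg3, Dsc2, Pkp1, Dsp and Jup were at their lowest. For Jup the margin was small, at 227 CPM against 237 and 238 CPM in M3-CKO replicates 1 and 2. Pkp2 was at its highest in M3-CKO replicate 3 (54.6 CPM, against 30.2 to 44.4 CPM in the other libraries). Pkp3 and Pkp4 were at their highest among the M3-CKO libraries. The log2 fold change of Klk14 was 2.75 (SE 1.07, edgeR adjusted p = 0.20), and 0.51 without M3-CKO replicate 3. No relation between these genes was tested, and Klk14 was picked for its values.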
